A study of Mus musculus with 4 samples.

Results

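The marker genes of 2 connective tissue cell types of muscle were followed in RNA from sorted muscle stem cells (satellite cells) of mice. One class held 21 genes of fibro-adipogenic progenitors, the PDGF receptor alpha-positive mesenchymal cells between muscle fibres, and the other held 11 genes of tendon cells (tenocytes). These 32 genes were chosen by symbol out of 24328 in the table, and all 32 had a row. In 2 DEK libraries the mice carried 1 copy of a Pax7CreERT2 driver and 1 copy of a DEK-EGFP transgene at the H11 locus, at 4.5 months of age. In 2 YFP libraries they carried the same driver with a YFP reporter at ROSA26 (Pax7CreERT2/+; ROSA26YFP/+), at 7 months. All mice were perfused with paraformaldehyde before the cells were sorted and polyadenylated RNA was sequenced. The 2 groups also differ in age, in reporter and in transgene locus, and the parts of these in any difference cannot be told apart. Pax7CreERT2 expresses an inducible recombinase from the Pax7 gene, which marks satellite cells, and the labels do not say how many animals stand behind a library or which gate was sorted. The comparison asked how raised Dek, a chromatin protein, changes the RNA of quiescent satellite cells.

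Fibro-adipogenic progenitors build much of the interstitial matrix of muscle and send signals to satellite cells after injury, and they can turn into fibroblasts or fat cells. Their textbook markers are the receptor Pdgfra, the surface protein Ly6a (Sca-1) and a set of secreted matrix genes led by decorin and lumican. Tenocytes arise under the transcription factors scleraxis (Scx) and mohawk (Mkx) and lay down tendon collagen together with small leucine-rich proteoglycans, which bind collagen fibrils and set their thickness and spacing. Many of these matrix genes are also expressed, at lower levels, outside the cell type they are used to mark.

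Values are as deposited and are taken to be FPKM, a unit that was inferred. FPKM scales reads by transcript length and library size, so levels of different genes can be set side by side. Satellite cell markers were present in all libraries: the summed level of 12 such genes was 2926 and 3520 FPKM in DEK replicates 1 and 2, against 3095 and 2935 FPKM in YFP replicates 1 and 2, and 0 of the 12 were called by limma, with 5 higher at an unadjusted p under 0.05. Dek stood at 3196 and 1639.5 FPKM in DEK, against 512 and 504 FPKM in YFP (limma log2 fold change 2.17, SE 0.31, adjusted p = 0.0195). Rn45s, which encodes the precursor of ribosomal RNA, made up 5.15% and 5.55% of summed FPKM in DEK, against 11.8% and 15.7% in YFP. Totals were 541183 to 545123 FPKM, and read depth per library is unknown.

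Of the 32 marker genes, 14 were higher in DEK, 3 were lower, 13 were tested and not called, and 2 (Clec3b and Scx) were too low to test. The genes that rose were Dcn, Ly6a, Smoc2, Cd248, Dpt, Pi16, Mfap4 and Mfap5 in the progenitor class and Fmod, Thbs4, Tnmd, Kera, Comp and Chad in the tendon class, and those that fell were Fbln2, Prelp and Ogn. In the progenitor class 8 of 20 tested genes rose and 1 fell, and in the tendon class 6 of 10 rose and 2 fell. Among all 12179 tested genes, 4.57% were called higher and 3.21% lower at a limma adjusted p under 0.05 (557 and 391 genes). With Rn45s removed and the libraries rescaled, the split over all genes was 417 higher and 562 lower and their median moved to -0.07, while 13 marker genes were called higher and 3 lower. Both DEK values lay above both YFP values for 17 of the 30 tested marker genes and below them for 7, against 34% and 26.9% of all tested genes. The median log2 fold change, of FPKM + 1, was 0.82 over all 21 progenitor genes and 1.48 over all 11 tendon genes. Over the tested genes alone it was 0.97 and 1.75, against 0.05 over all 12179 tested genes. These medians take in 4 progenitor and 3 tendon genes that were under 1 FPKM in both YFP libraries. Those genes could only appear higher, so part of the contrast was set by the filter. A lower number of cells of one type and less RNA per cell cannot be told apart in sorted bulk samples.

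A gene was tested where it reached 1 FPKM in at least 2 libraries. Cd248, Comp, Kera, Mfap5, Pi16, Smoc2 and Tnmd were under 1 FPKM in both YFP libraries, so they entered through DEK alone and could only appear higher. Of the 363 genes of that kind across the genome, 49.9% were called higher. The other 23 tested marker genes reached 1 FPKM in a library of each group, and 7 of them were called higher (Dcn, Ly6a, Dpt, Mfap4, Fmod, Thbs4 and Chad) and 3 lower. Among the 11616 genes of this second kind 3.24% were called higher and 2.83% lower. Of the 7, Mfap4, Fmod, Thbs4 and Chad reached 1 FPKM in YFP replicate 1 but not in YFP replicate 2. They would have passed the filter through DEK alone as well, so this split does not free them of it. Dcn, Ly6a and Dpt were above 1 FPKM in every library.

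The calls rested on few libraries. Without DEK replicate 1, limma on the same genes called 0 of the 30 tested marker genes, and 0 genes in the whole table, with 16 marker genes higher and 3 lower at an unadjusted p under 0.05. Without DEK replicate 2, YFP replicate 1 and YFP replicate 2 it called 5, 7 and 7. Dcn, Ly6a and Smoc2 held their call in each of these 3 cases. The share of all tested genes at an unadjusted p under 0.05 was not taken. Counts at that threshold, here and for the other lists, thus have no background. The marker genes that entered through DEK alone are also part of the set tested. When the filter was instead rerun on the libraries kept, which was decided on after seeing the data, the calls numbered 9, 10, 9 and 7 of 23, 23, 30 and 30 tested without DEK replicate 1, DEK replicate 2, YFP replicate 1 and YFP replicate 2.

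**Figure D1:**
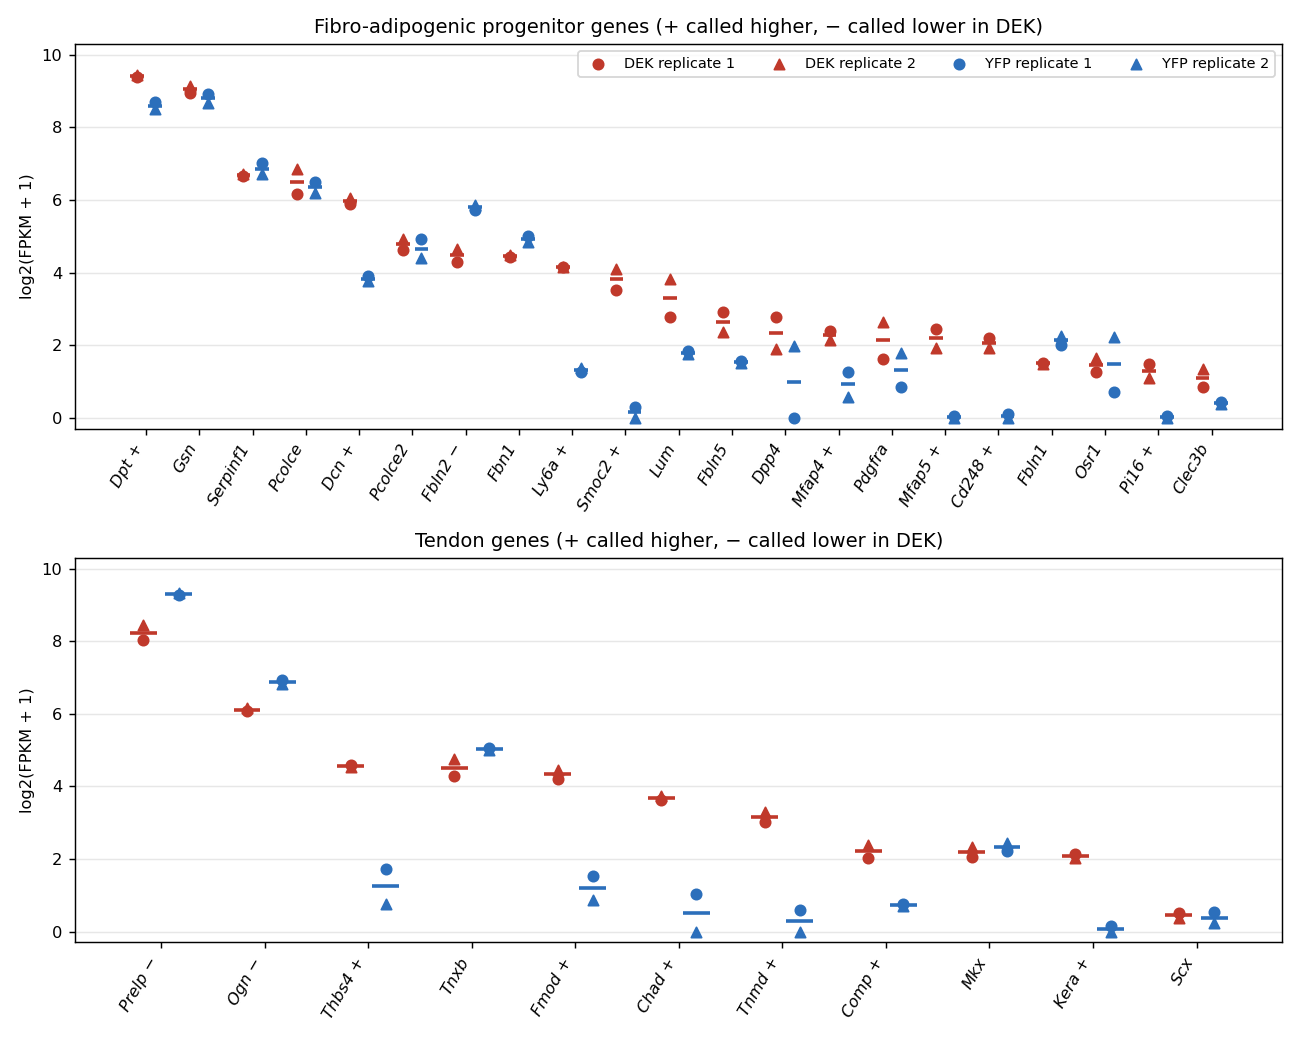
Level of each marker gene, as log2(FPKM + 1), in the 2 DEK libraries (red) and the 2 YFP libraries (blue), with circles for replicate 1, triangles for replicate 2 and short lines for the group means. Dpt, Gsn and Prelp are the highest genes in both groups, while Smoc2, Mfap5, Cd248, Pi16, Tnmd and Kera lie near 0 in YFP and clear of it in DEK.

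**Figure D2:**
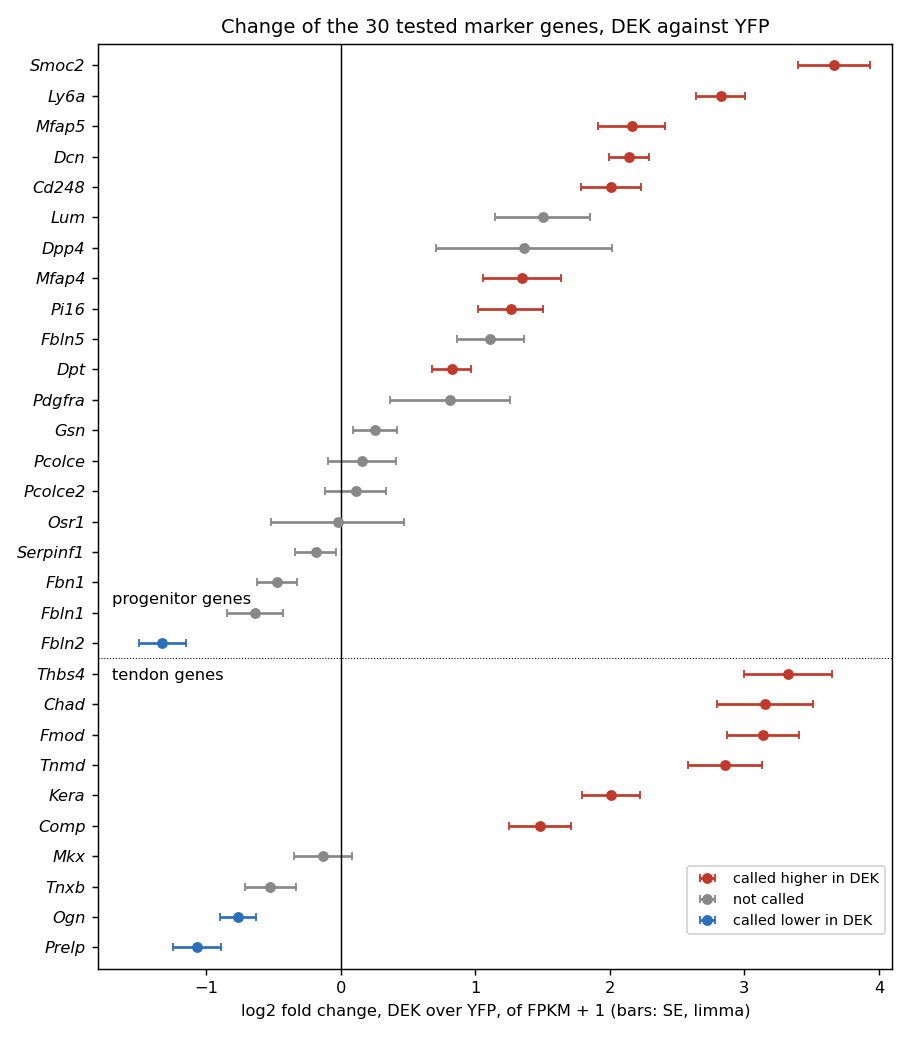
Log2 fold change, DEK over YFP, of FPKM + 1 for the 30 tested marker genes, with the limma standard error as bars and colour for the call at an adjusted p under 0.05. The 14 genes called higher run from 0.82 (Dpt) to 3.67 (Smoc2), and the 3 called lower from -1.32 (Fbln2) to -0.76 (Ogn).

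Surface proteins of the progenitors split into genes with a large rise and genes whose libraries overlapped. Ly6a, the membrane-anchored protein Sca-1 by which these cells are usually sorted, stood at 16.6 FPKM in both DEK libraries, against 1.38 and 1.61 FPKM in YFP (limma log2 fold change 2.82, SE 0.18, adjusted p = 0.00336). The replicates of each group lay close together and the groups did not overlap. Ly6a has close paralogs next to it, so reads may be shared, and endothelial cells express it as well. Cd248 (endosialin), a stromal cell surface glycoprotein, was at 3.58 and 2.82 FPKM in DEK, against 0.0819 and 0 FPKM in YFP (log2 fold change 2.01, SE 0.22, adjusted p = 0.00975). With YFP near 0 the fitted change was set by the added value, at 4.60 with 0.1 and 0.70 with 5, while that of Ly6a was 3.397 and 1.74. The call was lost in 5 of 16 alternative fits for Cd248 and in 1 of 19 for Ly6a.

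Pdgfra, the receptor for platelet-derived growth factors that defines the progenitors, was at 2.09 and 5.27 FPKM in DEK, against 0.814 and 2.46 FPKM in YFP. The groups overlapped, since YFP replicate 2 lay above DEK replicate 1 (log2 fold change 0.81, SE 0.44, limma adjusted p = 0.277). Dpp4, a membrane peptidase of the Pi16-positive progenitor subset that T cells also carry, was at 5.91 and 2.72 FPKM in DEK, against 0 and 2.90 FPKM in YFP, again with overlap (adjusted p = 0.226). The transcription factor Osr1, which is active in developing and regenerating muscle connective tissue, was at 1.38 and 2.14 FPKM in DEK, against 0.636 and 3.71 FPKM in YFP (log2 fold change -0.02, SE 0.50, adjusted p = 0.982). Both DEK values of Osr1 lay between the YFP values, and its difference changed sign when 1 library was left out. The defining receptor and Osr1 were thus low, at 5.27 FPKM or less in every library, and neither was called.

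Secreted genes of the progenitors included 1 of the large rises. Smoc2, a calcium-binding matricellular protein, was at 10.5 and 16.1 FPKM in DEK, against 0.222 and 0 FPKM in YFP (log2 fold change 3.67, SE 0.26, limma adjusted p = 0.00356). Its fitted change depended on the added value and was 6.19 with 0.1 and 1.82 with 5 in place of 1. Pi16, a peptidase inhibitor that marks a perivascular subset, was at 1.81 and 1.13 FPKM in DEK, against 0.0358 and 0 FPKM in YFP (log2 fold change 1.26, SE 0.24, adjusted p = 0.0374). The change of Pi16 was 3.71 with 0.1 and 0.36 with 5 added, and its call was lost in 9 of 16 alternative fits. Clec3b (tetranectin), which binds plasminogen, was at 0.784 and 1.53 FPKM in DEK, against 0.347 and 0.304 FPKM in YFP, and was not tested.

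Dpt (dermatopontin), a small matrix protein that binds decorin, was the most abundant marker gene in DEK. It reached 675 and 697 FPKM in DEK, against 412 and 363 FPKM in YFP, with no overlap (log2 fold change 0.82, SE 0.14, limma adjusted p = 0.0315; call lost in 8 of 19 alternative fits). Gsn (gelsolin), which cuts actin filaments and has a secreted form, followed with 496 and 567 FPKM in DEK, against 487 and 406 FPKM in YFP. The lowest DEK value of Gsn was just above the highest YFP value, and the gene was not called (log2 fold change 0.25, SE 0.16, adjusted p = 0.349). Dpt and Gsn made up 76.6% and 74.5% of the summed FPKM of the progenitor class in DEK replicates 1 and 2, against 71.7% and 71.0% in YFP replicates 1 and 2. Both are therefore high in libraries in which Pdgfra is low.

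Decorin (Dcn) and lumican (Lum) are small leucine-rich proteoglycans that coat collagen fibrils. Dcn was at 58.3 and 65.8 FPKM in DEK, against 13.9 and 12.6 FPKM in YFP, and averaged 62.0 ± 5.35 FPKM in DEK and 13.3 ± 0.935 FPKM in YFP (SD, n = 2 each). The 4.68-fold difference of the means gave a log2 fold change of 2.14 (SE 0.15, limma adjusted p = 0.00353), and it was 2.22 with 0.1 and 1.88 with 5 added in place of 1. Lum was at 5.85 and 13.1 FPKM in DEK, against 2.54 and 2.40 FPKM in YFP. Its groups did not overlap, but the DEK replicates lay far apart, and Lum was not called (log2 fold change 1.50, SE 0.35, adjusted p = 0.0576).

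Elastic fibres grow on a scaffold of fibrillin microfibrils, to which fibulins and microfibril-associated proteins bind. In this group of genes some rose and some fell. Mfap5 (MAGP-2), which binds fibrillin, was at 4.42 and 2.82 FPKM in DEK, against 0.0322 and 0 FPKM in YFP (log2 fold change 2.16, SE 0.25, limma adjusted p = 0.0111). The change of Mfap5 was 4.98 with 0.1 and 0.77 with 5 added, and its call was lost in 5 of 16 alternative fits. Mfap4, which binds elastin and collagen, was at 4.25 and 3.45 FPKM in DEK, against 1.41 and 0.491 FPKM in YFP (log2 fold change 1.35, SE 0.29, adjusted p = 0.0472). Its change was 2.05 with 0.1 and 0.57 with 5 added, and its call was lost in 12 of 18 alternative fits. An exon of Mfap4 overlaps the gene Mapk7 on the other strand, and since no source says that strand was used in counting, reads from both could be mixed. Fbln5, needed for elastic fibre assembly, was at 6.56 and 4.11 FPKM in DEK, against 1.93 and 1.82 FPKM in YFP, without overlap and short of a call (log2 fold change 1.11, SE 0.25, adjusted p = 0.0527).

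The other fibulins and fibrillin 1 lay lower in DEK. Fbln2, a fibulin of basement membranes and microfibrils, was at 18.7 and 24.1 FPKM in DEK, against 52.2 and 57.3 FPKM in YFP, which was the single fall called in the progenitor class (log2 fold change -1.32, SE 0.17, limma adjusted p = 0.0150; call lost in 7 of 19 alternative fits). Fbn1, the main protein of the microfibril, was at 20.6 and 21.3 FPKM in DEK, against 31.2 and 27.7 FPKM in YFP (log2 fold change -0.47, SE 0.15, adjusted p = 0.105). Fbln1, which binds fibronectin and basement membranes, was at 1.83 and 1.80 FPKM in DEK, against 3.02 and 3.77 FPKM in YFP (log2 fold change -0.64, SE 0.21, adjusted p = 0.112). Neither Fbn1 nor Fbln1 was called, although in both genes the groups did not overlap. The 3 fibulins thus had log2 fold changes of different sign, with Fbln5 at 1.11, Fbln1 at -0.64 and Fbln2 at -1.32.

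The 3 remaining progenitor genes were expressed at 20.02 FPKM or more in every library and were not called. Pcolce and Pcolce2 enhance the cleavage of procollagen by its C-proteinase. Pcolce was at 70.5 and 115 FPKM in DEK, against 88.9 and 72.7 FPKM in YFP (limma log2 fold change 0.16, SE 0.25, adjusted p = 0.712), and Pcolce2 at 23.5 and 29.5 FPKM in DEK, against 29.4 and 20.02 FPKM in YFP (log2 fold change 0.11, SE 0.23, adjusted p = 0.772). In both genes the groups overlapped, and the sign turned in some alternatives. Serpinf1 (pigment epithelium-derived factor), a secreted inhibitor of new blood vessels, was at 99.8 and 103 FPKM in DEK, against 128 and 104 FPKM in YFP (log2 fold change -0.18, SE 0.15, adjusted p = 0.459).

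The transcription factors of the tendon lineage did not differ beyond the spread of their libraries. Scx was under 0.5 FPKM throughout, with 0.437 and 0.291 FPKM in DEK, against 0.446 and 0.166 FPKM in YFP, and was not tested. Mkx was at 3.12 and 4.07 FPKM in DEK, against 3.64 and 4.41 FPKM in YFP, with overlap (limma log2 fold change -0.13, SE 0.22, adjusted p = 0.719).

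Matrix and membrane genes of tendon, however, were among the largest rises of the set. Tnmd (tenomodulin), a membrane glycoprotein that Scx switches on in tendon, was at 7.08 and 8.80 FPKM in DEK, against 0.510 and 0 FPKM in YFP (log2 fold change 2.86, SE 0.27, limma adjusted p = 0.00657). Thbs4, a thrombospondin of tendon and muscle attachment sites, was at 23.1 and 22.3 FPKM in DEK, against 2.28 and 0.704 FPKM in YFP (log2 fold change 3.32, SE 0.32, adjusted p = 0.00684). Comp, a thrombospondin that links collagen fibrils in cartilage and tendon, was at 3.06 and 4.27 FPKM in DEK, against 0.675 and 0.638 FPKM in YFP (log2 fold change 1.48, SE 0.23, adjusted p = 0.0224). In all 3 genes both DEK values lay well above both YFP values, while the YFP replicates of Thbs4 lay far apart. With 0.1 and with 5 added the changes were 5.02 and 1.298 for Tnmd, 4.04 and 2.10 for Thbs4, and 2.30 and 0.61 for Comp, which lost its call in 7 of 16 alternative fits.

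Leucine-rich repeat proteins made up 5 of the 11 tendon genes, and they moved in opposite directions. Fmod (fibromodulin), which binds collagen I and limits fibril growth, was at 17.6 and 20.8 FPKM in DEK, against 1.86 and 0.825 FPKM in YFP (log2 fold change 3.14, SE 0.27, limma adjusted p = 0.00478). Chad (chondroadherin), a cell-binding protein of cartilage and tendon, was at 11.3 and 12.3 FPKM in DEK, against 1.06 and 0 FPKM in YFP (log2 fold change 3.15, SE 0.36, adjusted p = 0.0105). Kera (keratocan), best known from the cornea, was at 3.43 and 3.04 FPKM in DEK, against 0.106 and 0 FPKM in YFP (log2 fold change 2.01, SE 0.21, adjusted p = 0.00843). These 3 genes were at 1.86 FPKM or less in every YFP library, and their fitted changes moved with the added value. With 0.1 and with 5 added they were 3.83 and 1.93 for Fmod, 5.12 and 1.61 for Chad, and 4.54 and 0.70 for Kera. Calls were lost in 2 of 19 alternative fits for Fmod, 4 of 19 for Chad and 5 of 16 for Kera. Chad was not called with 0.1 added.

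Prelp and Ogn, the abundant members of this family, fell. Prelp, which anchors basement membranes to connective tissue, was the highest of all 32 genes in YFP. It was at 261 and 347 FPKM in DEK, against 618 and 645 FPKM in YFP, and averaged 304 ± 60.8 FPKM in DEK and 631 ± 19.2 FPKM in YFP (log2 fold change -1.06, SE 0.18, limma adjusted p = 0.0280). Ogn (osteoglycin, also called mimecan) was at 66.5 and 70.2 FPKM in DEK, against 122 and 111 FPKM in YFP (log2 fold change -0.76, SE 0.13, adjusted p = 0.0316). The call was lost in 6 of 19 alternative fits for Prelp and in 10 of 19 for Ogn, which kept it under just 1 of the 8 fits with a library left out. Tnxb, a large matrix glycoprotein needed for normal collagen spacing, was at 18.6 and 25.8 FPKM in DEK, against 32.4 and 31.4 FPKM in YFP, and was not called (log2 fold change -0.52, SE 0.19, adjusted p = 0.143). Exons of Prelp and Tnxb overlap other annotated genes on the opposite strand, an antisense RNA and a pseudogene, and those of Pdgfra, Pi16, Fbn1 and Mkx overlap other genes as well, so reads could be mixed there too.

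Because Prelp and Ogn outweighed the rest, the summed level of the tendon class was lower in DEK although most of its genes were not. The 11 genes summed to 415 and 519 FPKM in DEK, against 783 and 794 FPKM in YFP, and Prelp and Ogn held 78.9% and 80.4% of the sum in DEK, against 94.5% and 95.2% in YFP. Without these 2 genes the sum was 87.6 and 102 FPKM in DEK, against 43.0 and 38.1 FPKM in YFP. The 21 progenitor genes summed to 1528 and 1696 FPKM in DEK, against 1255 and 1083 FPKM in YFP, and without Dpt and Gsn to 357 and 432 FPKM in DEK, against 356 and 314 FPKM in YFP. Sums of such classes thus follow their few most abundant genes.

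For the tendon genes called in either direction, the promoter stretches below show the 150 bases before the start of 6 of them, so that the 4 that rose (Fmod, Thbs4, Tnmd, Chad) can be set beside the 2 that fell (Prelp, Ogn). They come from RefSeq on build GRCm38.p6, not from the build of the deposited values, and are written 5′ to 3′ on the gene's own strand. The table matched 20 of the 32 symbols and 8 of the 11 tendon genes. Capitals mark every CANNTG, the E-box that basic helix-loop-helix factors such as Scx bind, and every TATAAA, both searched on both strands; the 2 motifs do not overlap in these stretches.
Fmod, chr1:134037104-134037253, plus strand: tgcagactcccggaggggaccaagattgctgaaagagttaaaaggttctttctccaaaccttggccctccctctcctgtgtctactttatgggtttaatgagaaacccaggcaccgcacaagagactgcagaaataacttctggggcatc
Thbs4, chr13:92794819-92794968, minus strand: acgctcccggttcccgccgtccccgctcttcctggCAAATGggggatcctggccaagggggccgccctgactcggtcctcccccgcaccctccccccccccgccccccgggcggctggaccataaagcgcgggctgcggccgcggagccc
Tnmd, chrX:133850858-133851007, plus strand: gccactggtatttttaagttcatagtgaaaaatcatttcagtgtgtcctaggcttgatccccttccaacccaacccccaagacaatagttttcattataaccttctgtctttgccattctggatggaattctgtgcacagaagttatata
Chad, chr11:94564897-94565046, plus strand: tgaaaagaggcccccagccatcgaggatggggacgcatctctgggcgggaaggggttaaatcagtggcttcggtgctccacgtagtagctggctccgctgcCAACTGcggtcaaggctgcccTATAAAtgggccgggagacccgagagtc
Prelp, chr1:133921402-133921551, minus strand: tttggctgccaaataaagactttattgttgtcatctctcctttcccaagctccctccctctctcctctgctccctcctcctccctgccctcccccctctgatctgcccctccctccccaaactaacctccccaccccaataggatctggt
Ogn, chr13:49607865-49608014, plus strand: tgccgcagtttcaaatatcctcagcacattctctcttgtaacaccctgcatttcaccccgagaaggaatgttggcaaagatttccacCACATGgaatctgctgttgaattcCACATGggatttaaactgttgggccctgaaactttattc

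Within these stretches CANNTG was found once in Thbs4 and in Chad, 2 times in Ogn and not in Fmod, Tnmd or Prelp, so it occurred both beside a gene that fell and beside genes that rose. Of 32851 mouse promoter entries of the same length 47.7% hold at least 1 CANNTG. The motif TATAAA was found in Chad alone among the 6, and 7.57% of all entries hold it. A match is a run of letters and not a bound site.

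Several of these proteoglycan genes lie next to each other, and some direct neighbours differed in direction while others did not. In the RefSeq annotation Prelp is followed by Fmod with no protein-coding gene between them, and Prelp fell while Fmod rose. In the row Dcn, Lum, Kera and Epyc, Dcn and Kera rose, Lum was not called, and Epyc was at 0 and 0.0477 FPKM in DEK, against 0.117 and 0 FPKM in YFP. For Dcn, Lum and Kera both DEK values lay above both YFP values. In the row Ecm2, Aspn, Omd and Ogn, Aspn (asporin) was at 10.98 and 7.28 FPKM in DEK, against 1.03 and 0.683 FPKM in YFP (log2 fold change 2.43, SE 0.26, limma adjusted p = 0.00835). Its neighbour Omd (osteomodulin) went the other way, with 4.73 and 3.39 FPKM in DEK, against 20.7 and 22.3 FPKM in YFP (log2 fold change -2.17, SE 0.20, adjusted p = 0.00584). Ogn, next to Omd, fell as well, and Ecm2 was not called (log2 fold change -0.33, SE 0.16, adjusted p = 0.225). Epyc was chosen for its position.

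**Figure D3:**
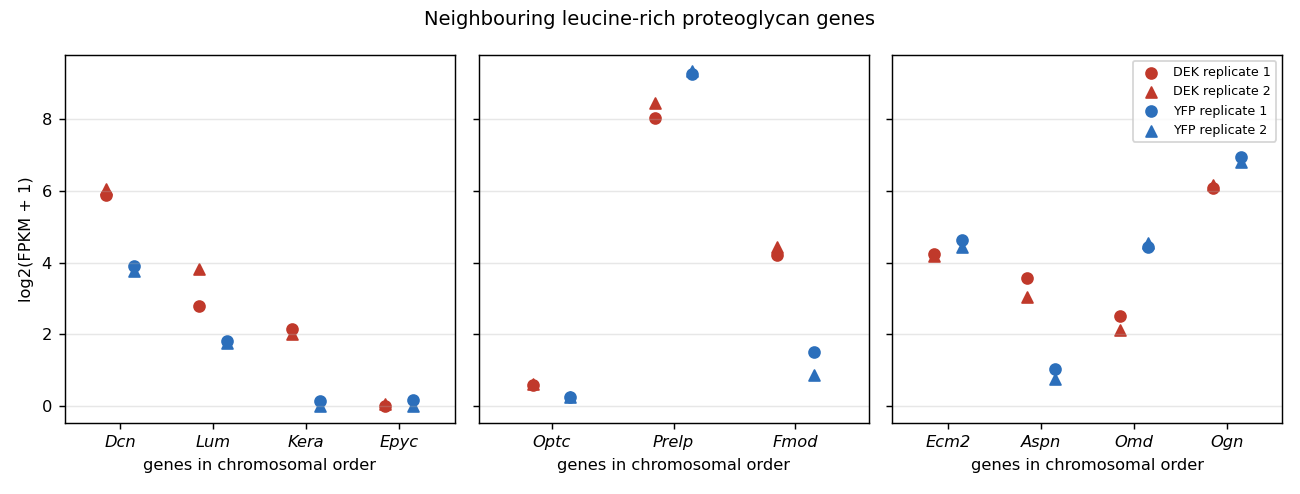
Level, as log2(FPKM + 1), of neighbouring leucine-rich proteoglycan genes in chromosomal order, in DEK (red) and YFP (blue) libraries, with circles for replicate 1 and triangles for replicate 2. Fmod and Aspn are higher in DEK while their direct neighbours Prelp and Omd are lower.

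Among the called marker genes, those that fell were abundant in YFP and most of those that rose were low. This did not extend to all 32 genes. Gsn, Serpinf1 and Pcolce averaged 447, 116 and 80.8 FPKM in YFP and were not called, nor were the low genes Fbln1, Mkx and Osr1. The 3 genes that fell averaged 54.7 (Fbln2) to 631 FPKM (Prelp) in YFP. Of the 14 that rose 12 averaged under 2 FPKM in YFP, and the exceptions were Dcn at 13.3 FPKM and Dpt at 388 FPKM. By mean level in each group, the order of the 3 highest genes was Dpt, Gsn and Prelp in DEK, against Prelp, Gsn and Dpt in YFP. At the other end Mfap5 was 24th of 32 in DEK and 32nd in YFP, and Smoc2 was 15th in DEK and 28th in YFP. At least 1 FPKM was reached by 30 and 31 of the 32 genes in DEK replicates 1 and 2, against 20 and 19 in YFP replicates 1 and 2. Genes listed at 0 numbered 0 in each DEK library, against 1 and 7 in YFP. A gene near 0 in YFP has no room to fall, and 7 of the 12 low genes that rose entered the test through DEK alone, so this order of levels is a description.

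**Figure D4:**
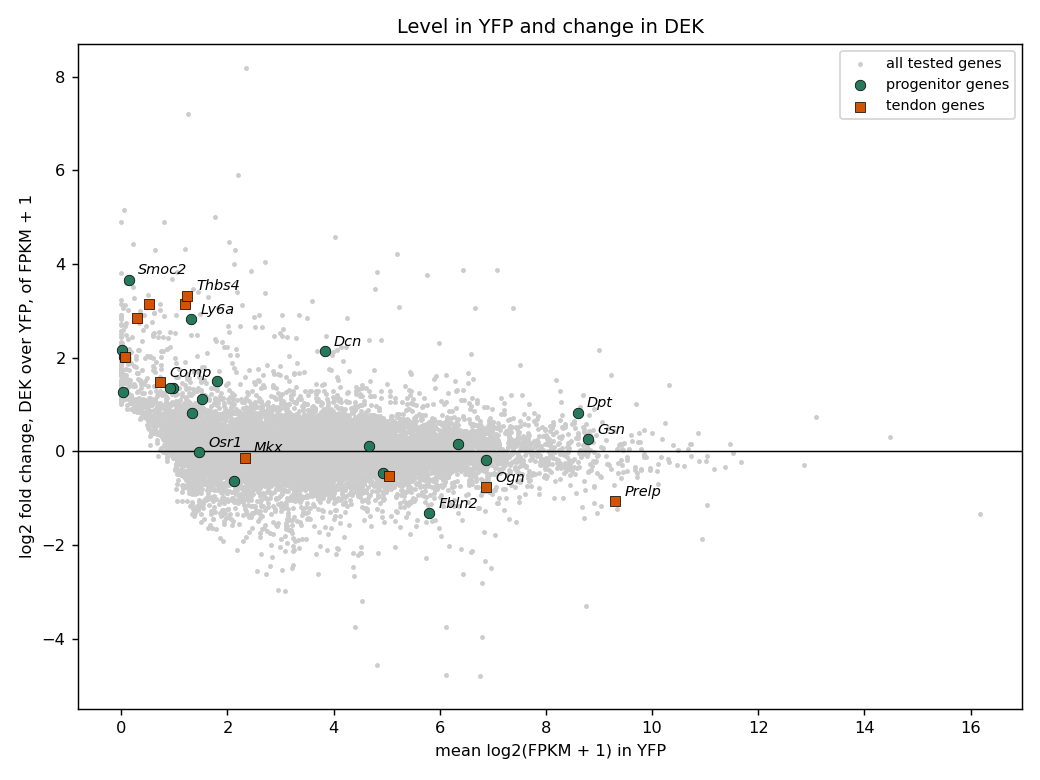
Mean level in YFP, as log2(FPKM + 1), against the log2 fold change in DEK over YFP, of FPKM + 1, for all 12179 tested genes (grey), progenitor genes (green circles) and tendon genes (orange squares). Genes near 0 in YFP that were tested have positive changes by the low filter, and among the genes well above 0 in YFP, Dcn and Dpt were called higher and Prelp, Ogn and Fbln2 lower.

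Genes that work with the marker genes were read from lists fixed by function. Their counts are to be read beside the 4.57% called higher and 3.21% called lower among all 12179 tested genes. Of 30 other progenitor-associated genes 20 were tested, 2 rose and 5 fell, with a median log2 fold change of 0.05 over all 30 and of -0.28 over the 20 tested. The chemokine Cxcl14 rose, with 4.61 and 7.26 FPKM in DEK, against 0.760 and 0.593 FPKM in YFP (log2 fold change 2.02, SE 0.26, limma adjusted p = 0.0142). Cxcl14 was under 1 FPKM in both YFP libraries, so it entered through DEK alone and could only appear higher. Of 5 fibrillar collagen chains in this list 3 fell (Col1a1, Col3a1 and Col5a2), while Col1a2 (log2 fold change -0.72, adjusted p = 0.239) and Col5a1 (0.06, adjusted p = 0.892) overlapped between groups and were not called; the last 3 were added to the named genes after their values were seen. Col1a1, a chain of collagen I, was at 13.3 and 36.1 FPKM in DEK, against 146 and 90.1 FPKM in YFP (log2 fold change -2.33, SE 0.46, adjusted p = 0.0401). Col3a1, the chain of collagen III, was at 206 and 267 FPKM in DEK, against 602 and 459 FPKM in YFP (log2 fold change -1.16, SE 0.20, adjusted p = 0.0308). Cxcl12, a chemokine that retains stem cells, was at 92.7 and 102 FPKM in DEK, against 150 and 174 FPKM in YFP (log2 fold change -0.73, SE 0.14, adjusted p = 0.0403). Col1a1 and Col3a1 were lower in the same DEK libraries in which Dcn, Fmod and Tnmd were higher.

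Among 17 elastic fibre genes 13 were tested, 2 rose and 0 fell, with 3 higher and 1 lower at an unadjusted limma p under 0.05. Efemp1, a fibulin family gene, was at 1.99 and 2.08 FPKM in DEK, against 0.218 and 0 FPKM in YFP (adjusted p = 0.0225). Efemp1 entered through DEK alone and could only appear higher. The crosslinking enzyme Loxl1 was at 119 and 144 FPKM in DEK, against 80.3 and 80.7 FPKM in YFP (log2 fold change 0.69, SE 0.15, adjusted p = 0.0477). Emilin2 and Loxl2 had log2 fold changes of 1.19 and -0.75 and were not called (adjusted p = 0.0651 and 0.0815). Of 11 other small leucine-rich proteoglycan genes 5 were tested, Aspn rose and Omd fell, and the decorin relative Bgn (biglycan) was at 66.6 and 85.0 FPKM in DEK, against 115 and 116 FPKM in YFP (adjusted p = 0.0722).

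Of 17 measured procollagen processing genes 14 were tested, and 1 fell and 0 rose, with 3 lower and 0 higher at an unadjusted limma p under 0.05. The one that fell was Adamts2, the enzyme that removes the N-propeptide of procollagens, at 1.22 and 1.24 FPKM in DEK, against 7.55 and 7.88 FPKM in YFP (log2 fold change -1.97, SE 0.19, adjusted p = 0.00669). Furin, Bmp1 (the C-proteinase that Pcolce enhances) and Adamts14 had log2 fold changes of -0.83, -0.48 and -0.48 and were not called (adjusted p = 0.0627, 0.138 and 0.257). Of 23 measured other tendon-associated genes 20 were tested, 3 rose and 2 fell. Of the 3 that rose, Cpxm2 was under 1 FPKM in both YFP libraries and could only appear higher. Egr1, a transcription factor active in tendon and in the stress response, was at 2130 and 916 FPKM in DEK, against 172 and 161 FPKM in YFP (adjusted p = 0.0128). Thbs2 rose with a log2 fold change of 0.91 (adjusted p = 0.0246), while the collagen-binding Sparc and the growth factor Gdf6 fell with -1.32 and -1.28 (adjusted p = 0.0160 and 0.0173). Of the 6 platelet-derived growth factor genes 3 were tested and 0 were called by limma, also at an unadjusted p under 0.05. The receptor Pdgfrb, the ligand Pdgfa and the receptor-like Pdgfrl had log2 fold changes of 0.45, 0.30 and 0.12 (adjusted p = 0.289, 0.537 and 0.604).

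Markers of other cell types differed between the same libraries. Among all tested genes 4.57% were called higher. The 12 endothelial markers summed to 199 and 163 FPKM in DEK, against 69.1 and 62.0 FPKM in YFP, with 10 called higher. All 10 were under 1 FPKM in both YFP libraries, so they entered through DEK alone and could only appear higher. Of all 363 genes of that kind 49.9% were called higher. Kdr, Flt1 and Ptprb were listed at 0 in both YFP libraries. Most of the YFP sum was Tek, at 78.8 and 66.5 FPKM in DEK, against 55.9 and 56.7 FPKM in YFP. Tek was not called (limma adjusted p = 0.172). The 11 measured macrophage markers summed to 108 and 133 FPKM in DEK, against 3.69 and 20.2 FPKM in YFP, with 6 called higher, and C1qa, C1qb, C1qc and Tyrobp were at 0 in both YFP libraries. All 6 likewise entered through DEK alone and could only appear higher. The 6 Schwann cell markers summed to 31.4 and 24.4 FPKM in DEK, against 12.3 and 8.79 FPKM in YFP, with 2 called higher. Pericyte and smooth muscle markers, 10 genes, summed to 784 and 1159 FPKM in DEK, against 981 and 992 FPKM in YFP, with 2 called higher. Of these 2, Myh11 entered through DEK alone as well. The 6 T cell markers summed to 2.66 and 2.71 FPKM in DEK, against 0.605 and 0.819 FPKM in YFP, and none was tested. The 10 myofibre markers summed to 113 and 63.3 FPKM in DEK, against 101 and 88.0 FPKM in YFP, with 0 called by limma and 3 at an unadjusted p under 0.05. Of these 3, Ckm and Tnnt3 were higher and Acta1 was lower. The 5 erythroid markers summed to 24.9 and 347 FPKM in DEK, against 7.71 and 0.299 FPKM in YFP, with 1 called higher. That gene, Hba-a1, also entered through DEK alone. Sums of endothelial, macrophage and Schwann markers were thus higher in the libraries in which many progenitor and tendon genes were higher. The part of these cell types in the results was not tested.

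**Figure D5:**
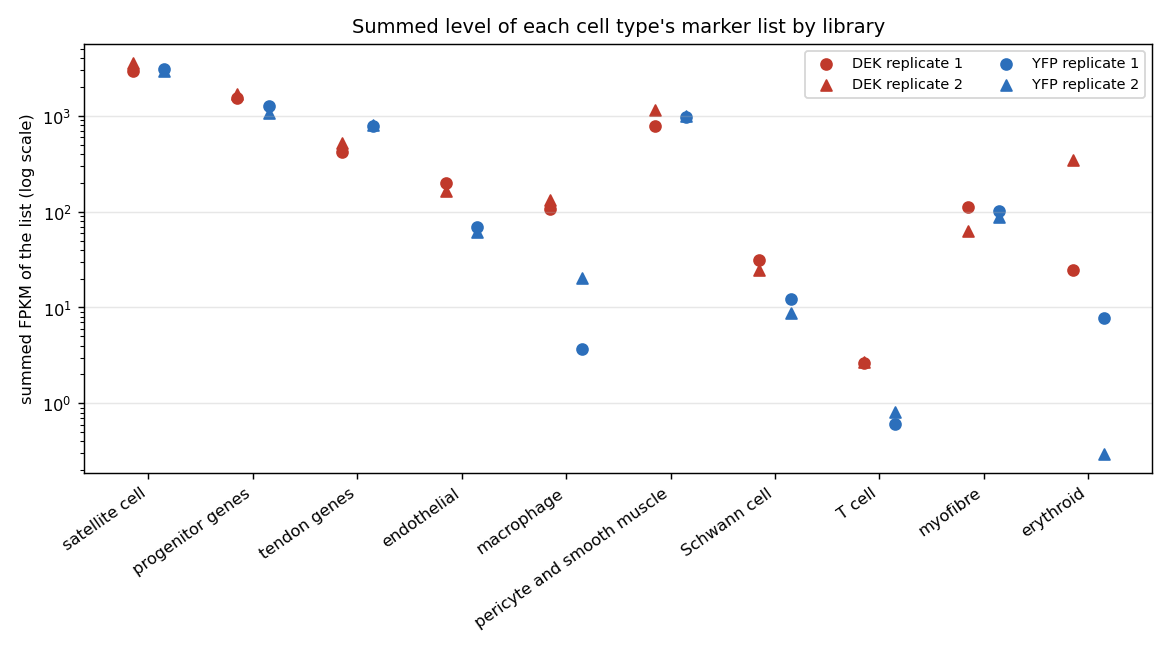
Summed FPKM of each cell type's marker list in the 2 DEK libraries (red) and the 2 YFP libraries (blue), on a log axis, with circles for replicate 1 and triangles for replicate 2. Progenitor, endothelial, macrophage, Schwann, T cell and erythroid sums are higher in both DEK libraries than in either YFP library. The tendon sum is lower, and the satellite cell, pericyte and myofibre sums overlap.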

How the data were processed

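RNA of 2 DEK and 2 YFP libraries was compared, with groups and replicate numbers taken from the sample titles. STAR 2.5.3a, StringTie 1.3.3, R 3.4.1 and build mm9 are named, per the submitters' processing notes, while annotation, filters and strand setting are not given in the sources used here. The deposited table gives a value per symbol and library, taken to be FPKM from the authors' pipeline. That unit is inferred, and TPM cannot be told apart. Scaling each library to the same total, as TPM would be, left 17 of 30 marker genes called, as before. The table holds no counts, so no intervals or detection limits are given. All 4 value columns were used.

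The deposited values were taken as log2(FPKM + 1) and fitted by limma 3.58.1 under R 4.3.3 (linear model, empirical Bayes with trend, no covariates, two-sided). A gene was tested if 2 libraries or more reached 1 FPKM (12179 tested, 12149 not). Benjamini-Hochberg adjustment ran over all tested genes, and adjusted p under 0.05 counted as called. The fit was tested on simulated data. Nothing says that the replicates are separate animals, so a p-value here reflects library-to-library spread alone, which may be technical, and the smallest exact permutation p for 2 against 2 is 0.333. Fold changes on this scale understate low genes.

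Named were all 32 marker genes, and up to 4 genes with the smallest p in each of the 6 related lists. Any other gene was chosen for its position, as a cell type marker or as stated beside it, or checks the libraries. The split into progenitor and tendon genes, the members and the lists were chosen with earlier results of these data known. Alternatives were each library left out, the replicate number as a block, 0.1 or 5 as the added value, a filter of 5 FPKM and none at all, TMM-type factors (trims of 30% and 5%, unweighted), quantile normalization, removal of Rn45s with rescaling, limma without trend or with robust estimation, and other call rules. Refiltering with a library left out and scaling to the same total were added after seeing the data. Promoter sequences came from RefSeq on GRCm38.p6, and exon overlaps from GENCODE M21. Neither was joined to the deposited values by coordinate.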

Additional observations from a re-analysis of the deposited data

How the results depend on the processing

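Every marker gene called higher or lower kept its sign under all alternatives run, but not its call. The kept sign lends no support. The 7 genes that entered through DEK alone could only appear higher. In every called gene the groups did not overlap, so leaving a library out could not turn the sign. With 1 library left out, with either filter, calls ranged from 0 to 780 over all genes (184 on the same genes without DEK replicate 2, and 302, 168 and 83 refiltered without DEK replicate 1, YFP replicate 1 and YFP replicate 2), 0 to 4 for progenitor genes higher and 0 to 1 lower, 0 to 5 for tendon genes higher and 0 to 2 lower, and 0 to 14 in the related lists (9 refiltered without DEK replicate 1). The progenitor median then ran from 0.71 to 1.002 (0.91 refiltered without DEK replicate 1), and the tendon median from 1.295 to 1.67. The log2 fold changes that turned sign were those of Osr1 (-0.79 to 0.74, and 0.18 refiltered without DEK replicate 1), Pcolce (-0.19 to 0.51), Pcolce2 (-0.15 to 0.38, and -0.042 refiltered without DEK replicate 2) and Mkx (-0.28 to 0.017), all uncalled. With 0.1 added the medians were 1.42 (progenitor) and 2.30 (tendon) and Osr1 stood at 0.12. With 5 added they were 0.37 and 0.61. Without a low filter 293 genes were called, with 5 progenitor genes higher and 0 lower, 3 tendon genes higher and 0 lower, and 4 related genes. At 5 FPKM or more in 2 libraries 4 progenitor genes were higher, fewer being tested. The progenitor median was 0.74 after quantile normalization and 0.74 with Rn45s removed, where Pcolce2 was at -0.022. Tendon genes called lower numbered 1 without the variance trend, with a 2-fold minimum and under the replicate block. Related genes called numbered 11 without the trend and 26 at an adjusted p under 0.1, where 2096 genes were called in all. The replicate numbers did not pair the libraries (correlation of deviations 0.0635), and with the replicate number as a block 618 genes and 11 related genes were called. Where no value above shows it, the cause was not tested. Depth is unknown, and 2 libraries a group limit all calls.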
